A study of Mus musculus with 21 samples.

Results

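The Hox genes of the mouse were followed through the making of germ cells in culture. All probes of an Illumina bead array whose annotated symbol is that of a Hox cluster gene were taken, whatever their signal. This gave 57 probes for 38 genes, of 45281 probes for 19057 genes on the array. RNA was measured on 21 arrays, in 7 groups of 3 replicates, from embryonic stem cell lines of 3 genotypes. The lines were Otx2-/-; Blimp1-/- (both genes null), Otx2-/- (its null allele is Otx2GFP/lacZ, which the double-null line also carries) and wild-type E14Tg2a. Aggregates were kept to day 6 in GK15 medium, which holds 15% serum replacement, with BMP4, LIF, BMP8a, SCF and EGF, and cells carrying both SSEA1 and CD61 were sorted from them as primordial germ cell-like cells (PGCLC). The same sort was made from Otx2-/- aggregates in GK15 without any cytokine. Epiblast-like cells (EpiLC), from which the aggregates were made, were taken from each line after 2 days in N2B27 with activin A, FGF2 and 1% serum replacement. The groups are called Otx2/Blimp1-null PGCLC, Otx2-null cells without cytokines, Otx2-null PGCLC, WT PGCLC, and the EpiLC of each line. Each genotype is represented by 1 line, so that genotype and line cannot be told apart. The labels number the replicates and do not give their origin, and the spread behind each p-value is that of these arrays, which may be technical.

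Hox genes encode homeodomain transcription factors and lie in 4 clusters, A to D, numbered by paralogue group along the cluster. In the embryo the genes with low numbers are switched on first and reach farthest toward the head, and those with higher numbers follow later and more posteriorly. Caudal-type factors (Cdx), Wnt, FGF and retinoic acid signals start their expression in the posterior epiblast and its mesoderm, and Polycomb repression holds them silent elsewhere. In mouse primordial germ cells, which are set aside in that same posterior region, the somatic programme that includes Hox genes is normally repressed, and Blimp1 (Prdm1) is known for this role.

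A probe counts as detected on an array when its deposited detection p is under 0.05. Detected probes made up 35.2% to 43.2% of all probes on the day-6 arrays, with the lowest share in Otx2/Blimp1-null PGCLC and the highest in WT PGCLC, and 31.1% to 35% on the EpiLC arrays. All 7 measured germ cell markers (Tfap2c, Kit, Dppa3, Nanos3, Prdm14, Dnd1 and Tcl1) were detected on all 3 arrays of each day-6 group, while 3 to 5 of them were so detected in EpiLC. Their summed linear signal was 5303 to 6042 in Otx2/Blimp1-null PGCLC, 19769 to 23446 in Otx2-null cells without cytokines, 12557 to 15077 in Otx2-null PGCLC and 20615 to 24529 in WT PGCLC, against at most 1959 on any EpiLC array. Against WT PGCLC, 6 of the 7 were lower and 1 higher in Otx2/Blimp1-null PGCLC, beside 19.9% and 13.2% of all genes. In Otx2-null PGCLC 5 were lower and 1 higher, beside 6.67% and 4.55%. Without cytokines 1 was lower and 1 higher, beside 7.78% and 5.12%. Markers and all genes were each read by the brightest probe of the gene. The part of these marker differences in the Hox values was not tested. The Otx2 probe was detected on every array and was no check of the genotype. It read 10.4 ± 0.15 in Otx2/Blimp1-null PGCLC, 9.34 ± 0.22 in Otx2-null cells without cytokines and 9.62 ± 0.22 in Otx2-null PGCLC, against 7.63 ± 0.07 in WT PGCLC (normalized log2 signal, SD, n = 3 each). Whether it lies in the replaced stretch of the gene is not given in the sources used here. The Prdm1 probes were not detected in PGCLC of any line and check nothing either. The array of Otx2-null PGCLC replicate 2 had its deposited intensities in another probe order than its normalized values. This array was put in the order of the normalized values. The count for Otx2-null against WT PGCLC is therefore also given without it. Other counts that rest on it are given only as ranges over single arrays left out.

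Most Hox probes were dark, and the WT PGCLC arrays had the most detected ones. On the 3 WT PGCLC arrays 21, 21 and 24 of the 57 Hox probes were detected. The counts were 8, 11 and 8 in Otx2/Blimp1-null PGCLC, 9, 6 and 4 in Otx2-null cells without cytokines, and 6, 11 and 8 in Otx2-null PGCLC. EpiLC arrays had 5, 3 and 4 in the Otx2/Blimp1-null line, 4, 3 and 7 in the Otx2-null line, and 6, 5 and 6 in WT. Every WT PGCLC array thus had more detected Hox probes than any of the other arrays. Asked for on all 3 arrays of a group, WT PGCLC had 19 Hox probes for 15 genes, which is 33.3% of the Hox probes, beside 35.8% of all probes. The share was 10.5% of Hox probes in Otx2/Blimp1-null PGCLC (30.7% of all probes), 1.75% in Otx2-null cells without cytokines (34.8% of all) and 5.26% in Otx2-null PGCLC (34.6% of all). It was 3.51% in Otx2/Blimp1-null EpiLC, 1.75% in Otx2-null EpiLC and 3.51% in WT EpiLC. With bulk RNA, fewer cells that express a gene and less of its RNA per cell cannot be told apart.

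**Figure D1:**
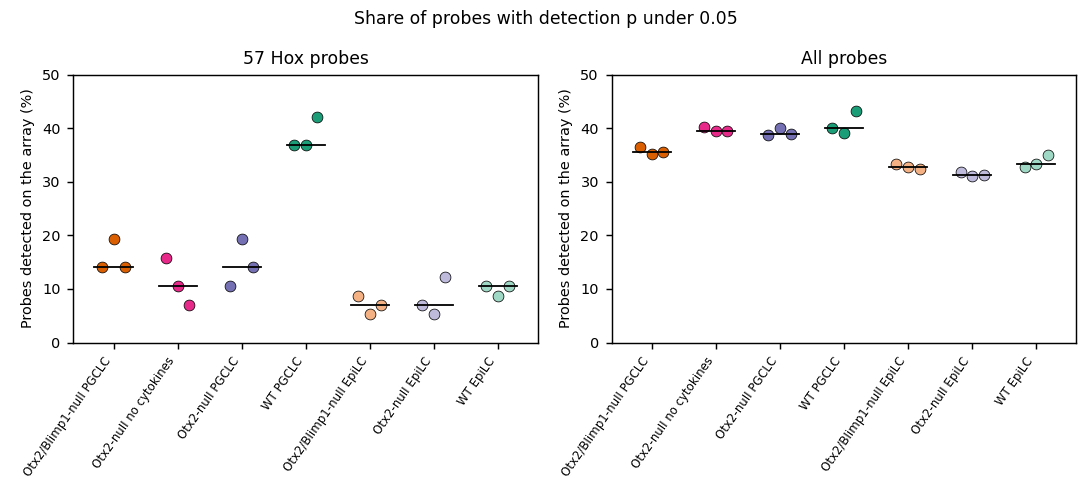
The share of probes detected (p under 0.05) on each array, in percent of the 57 Hox probes on the left and of all probes on the right. Points are arrays, 3 a group, and bars are medians. For Hox probes the 3 WT PGCLC arrays lie above all others (36.8% to 42.1%), while for all probes they lie close to the other day-6 groups.

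By position in the clusters, the genes detected on all 3 WT PGCLC arrays were 3 of the 11 measured genes of paralogue groups 1 to 4 (Hoxa2, Hoxb2, Hoxd4). They were 10 of the 18 of groups 5 to 10, and 2 of the 9 of groups 11 to 13 (Hoxa13, Hoxc13). By cluster they were 4 of 10 in Hoxa, 3 of 10 in Hoxb, 4 of 9 in Hoxc and 4 of 9 in Hoxd. Of all 57 probes, 20 probes for 16 genes were detected on all arrays of some group, 11 on some arrays but never on all 3 of a group, and 26 on none. For 14 genes no probe was detected on any array (Hoxa3, Hoxa10, Hoxa11, Hoxb1, Hoxb6, Hoxb8, Hoxb9, Hoxb13, Hoxc5, Hoxc11, Hoxc12, Hoxd1, Hoxd3 and Hoxd12). The 11 probes seen on some arrays belonged to Hoxa6, Hoxa9, Hoxa13, Hoxb3, Hoxb4, Hoxc4, Hoxc8, Hoxd11 and Hoxd13. Among them the Hoxd11 probe was detected on 11 of the 21 arrays and the Hoxc8 probe on 7, spread over the groups. Undetected probes read between 4.35 and 5.11, which is the level of the array's background on this scale.

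**Figure D2:**
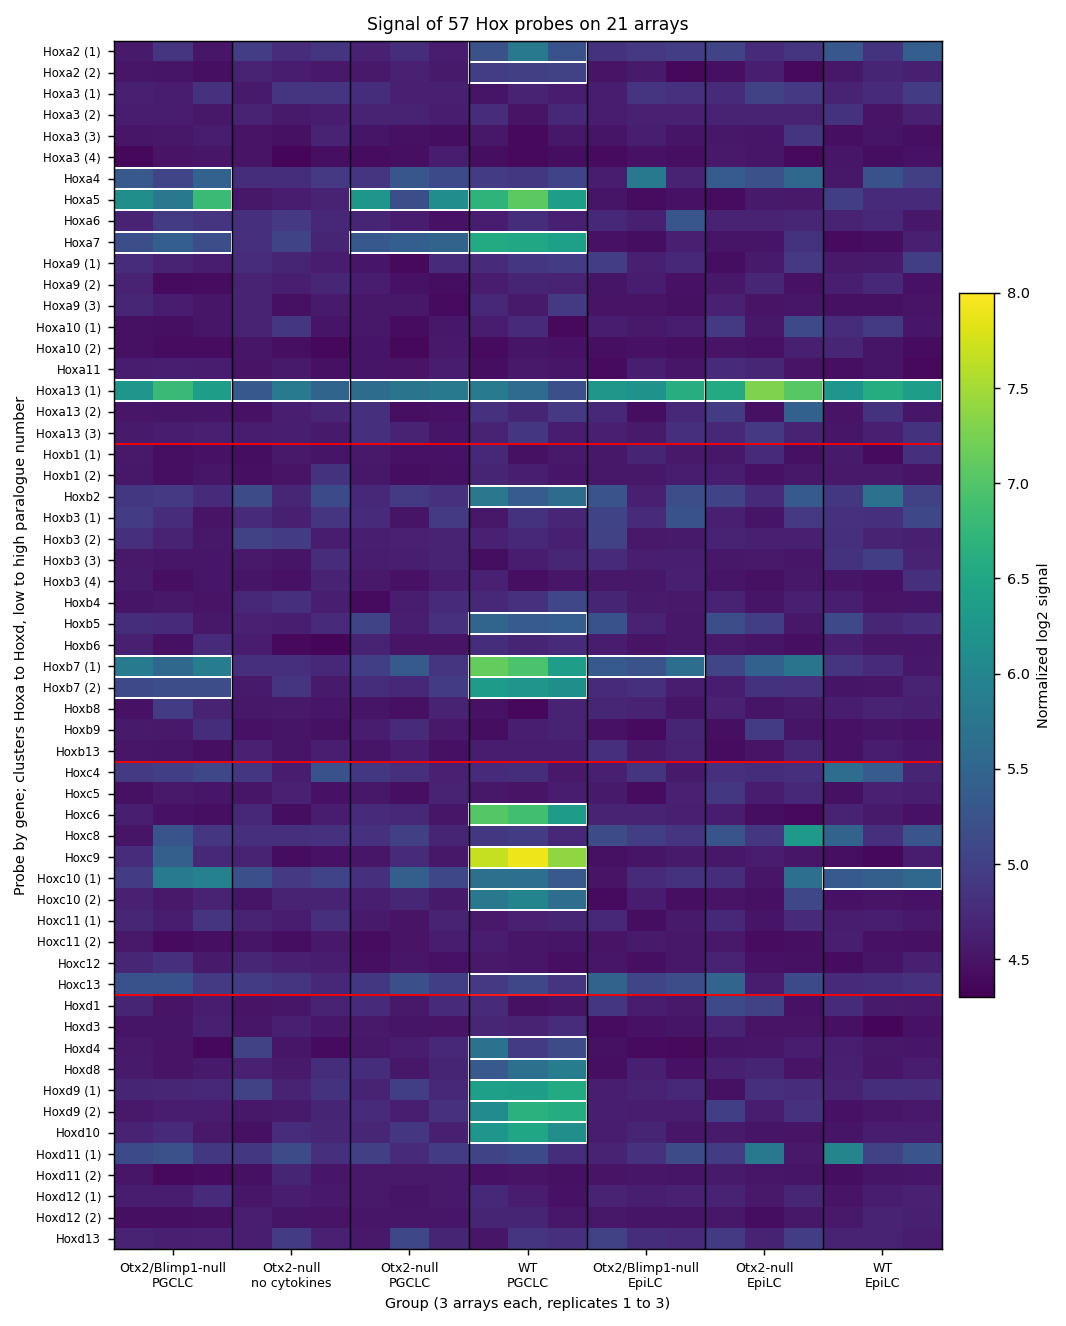
Normalized log2 signal (colour) of the 57 Hox probes (down the page, by cluster and paralogue number, probes of a gene numbered) on the 21 arrays (across, by group). White frames mark probes detected on all 3 arrays of a group, and red lines part the clusters. The bright block lies in WT PGCLC, Hoxa5 and Hoxa7 are also framed in both null PGCLC groups, and 1 Hoxa13 probe is framed in every group.

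In WT cells, PGCLC were set against EpiLC to ask what changed as the germ cell fate was induced. After a limma fit over all 45281 probes (Benjamini-Hochberg adjusted p under 0.05), 17 of the 57 Hox probes, for 15 genes, were higher and 3 lower in WT PGCLC. Over all probes, 14.2% were called higher and 13.2% lower. The median log2 difference was 0.05 over the Hox probes and -0.02 over all probes. Where detection on all 3 arrays of a group was also asked for, 14 Hox probes for 12 genes were higher and 1 was lower, beside 13.4% and 11.8% of all probes. The 14 met this detection rule only through the WT PGCLC arrays, where they were high. Their direction is thus not separate from the rule. A single probe for each gene was also fitted, over 11649 genes detected on at least 3 arrays. Of 19 Hox genes 10 were higher and 2 lower, beside 35.4% and 27.4% of these genes. With both directions together the share of Hox genes called was close to the 62.8% of these genes, but the Hox calls lay mostly on the higher side. Hoxc6, Hoxd8 and Hoxd10 passed this filter only through the WT PGCLC arrays, where they were high. Their calls as higher are thus not separate from the filter. Of the 18 measured genes of paralogue groups 5 to 10, 10 were called higher on a probe detected on all 3 PGCLC arrays. None of these probes was detected on any WT EpiLC array, so this count is not separate from the detection rule either. For these the fold is a bound, in which each array of the undetected group takes the lowest signal of any detected probe there (4.83 to 5.31 on the log2 scale) or the probe's own signal if higher. The sizes, and so these bounds, hold for the normalization used. With the authors' own normalization, 17 Hox probes were also higher, but the differences of dim genes were far smaller, at 0.10 and 0.12 for the 2 Hoxd9 probes, 0.08 for Hoxd10, 0.12 for Hoxa7, 0.32 for Hoxa5 and 0.37 for Hoxc6, against 2.39 for Hoxc9 (log2).

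Of the groups 5 to 7, Hoxa5 is known for patterning the neck and upper thorax and the lung. Its probe read 6.70, 7.07 and 6.36 in WT PGCLC, against 4.99, 4.75 and 4.74 in WT EpiLC. The groups did not overlap, and the gene was at least 2.95-fold higher in PGCLC (adjusted p = 8.95e-06). Hoxa7, a thoracic member of the A cluster, read 6.56, 6.51 and 6.39 in WT PGCLC, against 4.41, 4.44 and 4.63 in WT EpiLC, at least 2.53-fold higher (adjusted p = 1.9e-10). Its paralogue Hoxb7 has 2 probes, and the brighter one read 7.13, 6.96 and 6.37 in WT PGCLC, against 4.87, 4.74 and 4.53 in WT EpiLC. Both Hoxb7 probes rose, by at least 3.18-fold (adjusted p = 8.76e-08) and at least 2.13-fold (adjusted p = 3.66e-10). Hoxc6, which in the embryo marks the level of the forelimb and upper thorax, read 7.03, 6.88 and 6.33 in WT PGCLC, against 4.67, 4.57 and 4.48 in WT EpiLC. It was at least 3.03-fold higher (adjusted p = 5.93e-10). None of these values overlapped between the groups. Hoxb5 was dimmer, at 5.50, 5.36 and 5.40 in WT PGCLC, against 5.12, 4.70 and 4.77 in WT EpiLC, at least 1.21-fold higher (adjusted p = 0.0238). Its call was lost without WT PGCLC replicate 1 or 3 or WT EpiLC replicate 2 or 3, with differences between 0.48 and 0.57.

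Of the groups 8 to 10, Hoxc9, which sets thoracic identity of motor neurons, read 7.68, 7.90 and 7.39 in WT PGCLC, against 4.46, 4.38 and 4.59 in WT EpiLC. The fitted difference was 3.18 ± 0.15 (log2, SE), at least 5.69-fold (adjusted p = 3.94e-11). The 3 PGCLC arrays were bright and the EpiLC arrays were at background. Hoxd8, its neighbour group in the D cluster, read 5.34, 5.67 and 5.87 in WT PGCLC, against 4.63, 4.53 and 4.59 in WT EpiLC, at least 1.39-fold higher (adjusted p = 3.96e-07). Hoxd9 is measured by 2 probes that rose alike. One read 6.38, 6.38 and 6.57 in WT PGCLC, against 4.67, 4.78 and 4.78 in WT EpiLC, and the other 6.09, 6.66 and 6.6 in WT PGCLC, against 4.48, 4.52 and 4.56 in WT EpiLC. They were at least 2.45-fold (adjusted p = 7.42e-10) and at least 2.46-fold higher (adjusted p = 7.95e-10). Hoxd10, known for lumbar identity and the hindlimb, read 6.25, 6.47 and 6.13 in WT PGCLC, against 4.51, 4.59 and 4.58 in WT EpiLC, at least 2.19-fold higher (adjusted p = 2.23e-10). For Hoxc10, another lumbar gene, the probes disagreed. One read 5.78, 5.97 and 5.62 in WT PGCLC, against 4.48, 4.49 and 4.48 in WT EpiLC, at least 1.56-fold higher (adjusted p = 1.82e-07). The other was detected in both groups, at 5.66, 5.66 and 5.33 in WT PGCLC, against 5.34, 5.42 and 5.54 in WT EpiLC, and did not pass the test (0.12 ± 0.26, adjusted p = 0.848).

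The anterior genes moved less. Hoxa2, which gives the second branchial arch its identity, differed by 0.39 ± 0.07 on 1 probe, which read 4.97, 5.00 and 5.04 in WT PGCLC, against 4.54, 4.68 and 4.62 in WT EpiLC (adjusted p = 0.000163). Its other probe overlapped between the groups (0.23 ± 0.16, adjusted p = 0.362). Hoxd4, a hindbrain and neck gene, read 5.70, 4.96 and 5.15 in WT PGCLC, against 4.61, 4.54 and 4.53 in WT EpiLC, at least 1.09-fold higher (adjusted p = 0.00149). Hoxb2, which patterns hindbrain segments, read 5.76, 5.37 and 5.61 in WT PGCLC, against 4.90, 5.68 and 5.02 in WT EpiLC. It overlapped between the groups and did not pass the test (adjusted p = 0.225). Hoxa4 also overlapped, at 4.95, 4.90 and 5.04 in WT PGCLC, against 4.54, 5.23 and 4.99 in WT EpiLC (adjusted p = 0.948). Hoxc13 read 4.91, 5.08 and 4.87 in WT PGCLC, against 4.75, 4.79 and 4.82 in WT EpiLC, which did not overlap but did not pass the test (adjusted p = 0.602). Among probes not detected on all arrays of either group, Hoxa9 (0.26), Hoxb4 (0.33) and Hoxd3 (0.28) were called higher, and Hoxb3 (-0.25) and Hoxc4 (-0.53) lower, all near background.

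At the posterior end, Hoxa13, a gene of the digits, hindgut and genital tubercle, went the other way. Of its 3 probes 1 was detected on all 21 arrays, another on 2 arrays and the third on none. The detected probe read 5.81, 5.59 and 5.21 in WT PGCLC, against 6.25, 6.59 and 6.37 in WT EpiLC. The groups did not overlap, and the signal fell by 0.87 ± 0.20 (log2, SE; adjusted p = 0.00189). With the authors' normalized table in place of the intensities, the difference was -0.08 (adjusted p = 0.89). A single probe of 3 carried this signal, so the values are those of the probe and may not stand for the gene.

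**Figure D3:**
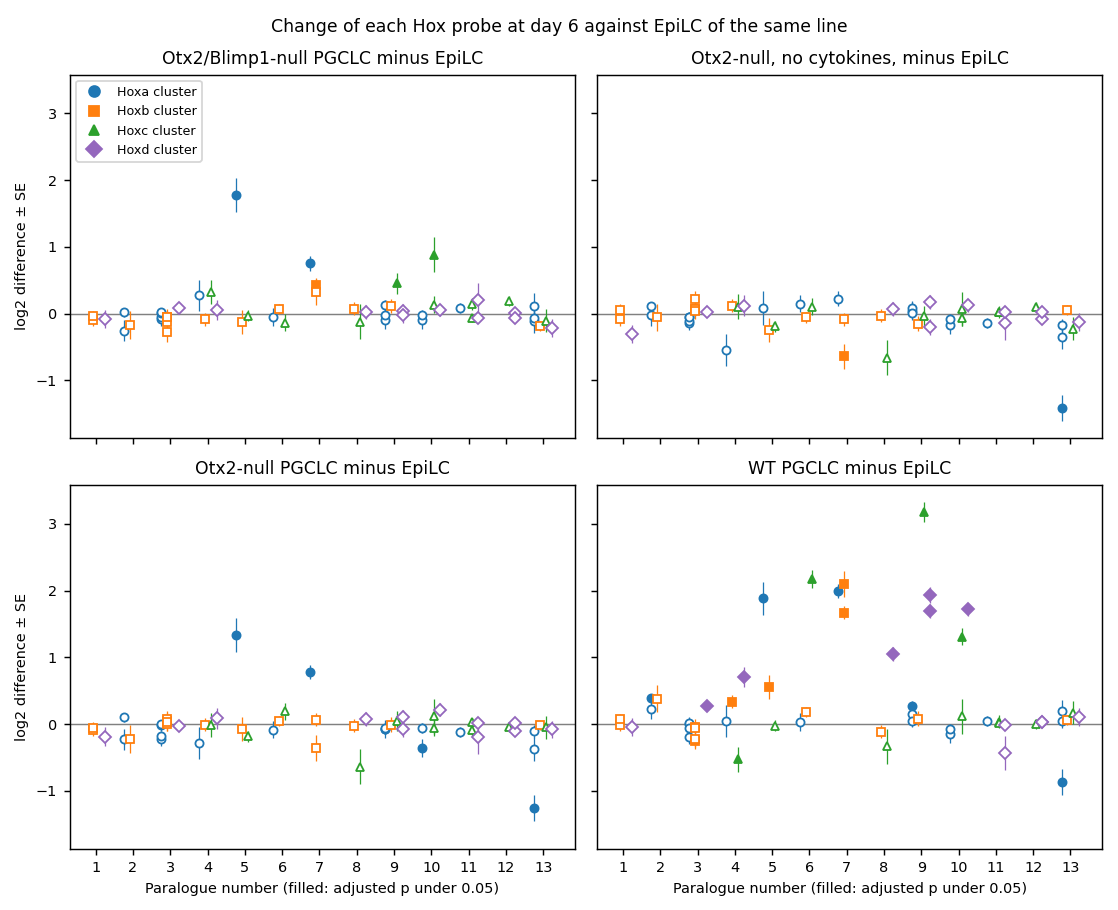
The log2 difference of each Hox probe between a day-6 group and EpiLC of the same line (vertical, with its SE) by paralogue number (horizontal), with a colour and symbol for each cluster. Filled symbols passed the test (limma, adjusted p under 0.05). In WT PGCLC the filled symbols above 1 lie at paralogue numbers 5 to 10, while in both null PGCLC groups only Hoxa5 passes 1.

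Promoter sequence was examined for the genes that were higher in WT PGCLC. RefSeq promoter entries (mouse build GRCm38.p6, 250 bases before to 50 after the start) were held for 22 of the 38 Hox genes, in 24 windows. They cover 7 of the 12 genes that were higher and detected in WT PGCLC (Hoxa2, Hoxa5, Hoxa7, Hoxd4, Hoxd8, Hoxd9 and Hoxd10). The other genes are Hoxb5, Hoxb7, Hoxc6, Hoxc9 and Hoxc10. The motifs were searched on both strands: TTTATG (Cdx), TAATCC (Otx and bicoid class), GGCGCC (SMAD1/5, GC-rich), AGGTCA (nuclear receptor half-site, as of retinoic acid receptors) and TGATNNAT (Hox with Pbx). Shown are a pair that rose in PGCLC of every line, Hoxa7 and Hoxa5, and a pair that rose in WT PGCLC and did not pass the test in the null lines, Hoxd10 and Hoxd9. Each is written 5′ to 3′ on its gene's strand, with capitals for matches to a searched motif on either strand.
Hoxa7 (chr6:52218524-52218823, minus strand): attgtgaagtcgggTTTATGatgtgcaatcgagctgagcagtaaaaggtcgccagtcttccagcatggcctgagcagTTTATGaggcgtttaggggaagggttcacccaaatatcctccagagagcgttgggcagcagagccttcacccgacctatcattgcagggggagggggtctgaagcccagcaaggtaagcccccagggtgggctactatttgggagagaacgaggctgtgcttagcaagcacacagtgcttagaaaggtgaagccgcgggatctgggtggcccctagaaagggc
Hoxa5 (chr6:52204538-52204837, minus strand): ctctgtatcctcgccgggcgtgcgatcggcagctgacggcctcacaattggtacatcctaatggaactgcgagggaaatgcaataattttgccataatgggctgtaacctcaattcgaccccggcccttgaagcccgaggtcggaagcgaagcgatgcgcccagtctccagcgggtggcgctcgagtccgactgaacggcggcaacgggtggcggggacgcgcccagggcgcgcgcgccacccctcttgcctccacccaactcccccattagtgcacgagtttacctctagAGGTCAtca
Hoxd10 (chr2:74691641-74691940, plus strand): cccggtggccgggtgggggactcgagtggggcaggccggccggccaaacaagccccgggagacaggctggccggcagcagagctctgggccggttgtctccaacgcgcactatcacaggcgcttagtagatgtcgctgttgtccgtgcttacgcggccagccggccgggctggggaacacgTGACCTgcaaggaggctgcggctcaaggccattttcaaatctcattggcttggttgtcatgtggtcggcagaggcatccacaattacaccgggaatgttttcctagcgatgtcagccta
Hoxd9 (chr2:74697513-74697812, plus strand): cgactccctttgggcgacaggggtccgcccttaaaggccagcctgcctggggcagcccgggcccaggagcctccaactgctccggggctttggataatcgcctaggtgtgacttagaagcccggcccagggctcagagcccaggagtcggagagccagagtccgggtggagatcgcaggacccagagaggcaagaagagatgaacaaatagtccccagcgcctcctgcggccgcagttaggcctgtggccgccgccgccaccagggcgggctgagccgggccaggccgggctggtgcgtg
TTTATG stood in 2 of the 7 windows (Hoxa7, at 2 places, and Hoxd4), in 2 of 9 windows of Hox genes with no detected probe, and in 11.9% of all 32851 promoter windows. AGGTCA stood in 4 of the 7 (Hoxa5, Hoxd4, Hoxd8 and Hoxd10), in 1 of the 9, and in 16.3% of all. TGATNNAT was found in Hoxa2 alone of the 7, in 2 of the 9, and in 8.85% of all. GGCGCC was in none of the 7, 3 of the 9 and 11.9% of all, and TAATCC was in no Hox window and in 7.06% of all. The windows of the 7 genes had a median GC content of 55.7% and those of all promoters 52.7%, with a median of 9 and 7 CpG. The 9 windows of Hox genes with no detected probe had 55% GC and 15 CpG. A match is only a match of letters, and these windows hold none of the distant enhancers of the clusters.

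Otx2-null PGCLC were next set against WT PGCLC, both made with cytokines. Most of the Hox genes above were at or near background in Otx2-null PGCLC. In Otx2-null PGCLC 15 of the 57 Hox probes, for 12 genes, were lower and 0 higher by limma, whose calls over all probes were 4.17% lower and 3.7% higher. At an unadjusted p under 0.05, 21 Hox probes passed in either direction. The median difference was -0.08 over Hox probes and 0.002 over all probes. Without Otx2-null PGCLC replicate 2, 13 of the 15 remained lower. Hoxc9 read 4.53, 4.74 and 4.54 in Otx2-null PGCLC, against 7.68, 7.90 and 7.39 in WT PGCLC, at least 6.64-fold lower (adjusted p = 9.24e-10). Hoxc6 read 4.75, 4.72 and 4.53 in Otx2-null PGCLC, against 7.03, 6.88 and 6.33 in WT PGCLC, at least 3.54-fold lower (adjusted p = 1.94e-08). Neither was detected on any Otx2-null PGCLC array.

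The probes of Hoxd8, Hoxd10 and Hoxd4 were dark as well, while 1 probe each of Hoxd11, Hoxd13 and Hoxd9 was detected on 1 or 2 of the 3 arrays. Hoxd10 read 4.70, 4.89 and 4.62 in Otx2-null PGCLC, against 6.25, 6.47 and 6.13 in WT PGCLC, at least 2.56-fold lower (adjusted p = 1.7e-08). Hoxd8 read 4.78, 4.54 and 4.68 in Otx2-null PGCLC, against 5.34, 5.67 and 5.87 in WT PGCLC, at least 1.63-fold lower (adjusted p = 1.43e-05). One Hoxd9 probe fell by 1.66 ± 0.10 (log2, SE; adjusted p = 1.94e-08) and was detected on 1 of the 3 Otx2-null PGCLC arrays, at 4.65, 4.98 and 4.72. The other was detected on none and was at least 2.87-fold lower (adjusted p = 6.28e-08). Hoxc10 fell on the probe that had risen in WT, which read 4.61, 4.69 and 4.57 in Otx2-null PGCLC, against 5.78, 5.97 and 5.62 in WT PGCLC, at least 1.82-fold lower (adjusted p = 9.8e-06). In each of these genes the groups did not overlap. Both Hoxb7 probes fell, by 1.75 ± 0.19 (adjusted p = 1.06e-05) and 1.41 ± 0.10 (adjusted p = 5.19e-08). The brighter one read 4.99, 5.35 and 4.85 in Otx2-null PGCLC, against 7.13, 6.96 and 6.37 in WT PGCLC, and was detected on 2 of the 3 null arrays.

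Hoxa7 and Hoxa5 were the members detected on all 3 Otx2-null PGCLC arrays, beside the Hoxa13 probe. Hoxa7 read 5.32, 5.40 and 5.48 in Otx2-null PGCLC, between the WT PGCLC values of 6.39 to 6.56 and background, and was lower by a log2 difference of -1.08 ± 0.11 (SE; adjusted p = 4.45e-06). Hoxa5 read 6.26, 5.19 and 6.11 in Otx2-null PGCLC, against 6.70, 7.07 and 6.36 in WT PGCLC, a difference of -0.85 ± 0.25 (adjusted p = 0.045). The groups did not overlap, but this call was fragile. It was lost without Otx2-null PGCLC replicate 2 (-0.52, adjusted p = 0.254), without WT PGCLC replicate 1 (-0.86, adjusted p = 0.107) or replicate 2 (-0.68, adjusted p = 0.221), and with the authors' normalized table (-0.27, adjusted p = 0.182). Hoxb5 did not pass the test (-0.59 ± 0.18, adjusted p = 0.0514). Of the anterior genes, both Hoxa2 probes (at least 1.41-fold, adjusted p = 0.00471, and at least 1.05-fold, adjusted p = 0.000602), Hoxb2 (-0.76 ± 0.21, adjusted p = 0.0296) and Hoxd4 (at least 1.27-fold, adjusted p = 0.0129) were lower. The Hoxb2 call was lost without any 1 of the 3 Otx2-null PGCLC replicates or without WT PGCLC replicate 1 or 3 (differences of -0.81 to -0.66). The Hoxd4 call was lost without Otx2-null PGCLC replicate 1 (fitted difference -0.61) or WT PGCLC replicate 1 (-0.43).

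**Figure D4:**
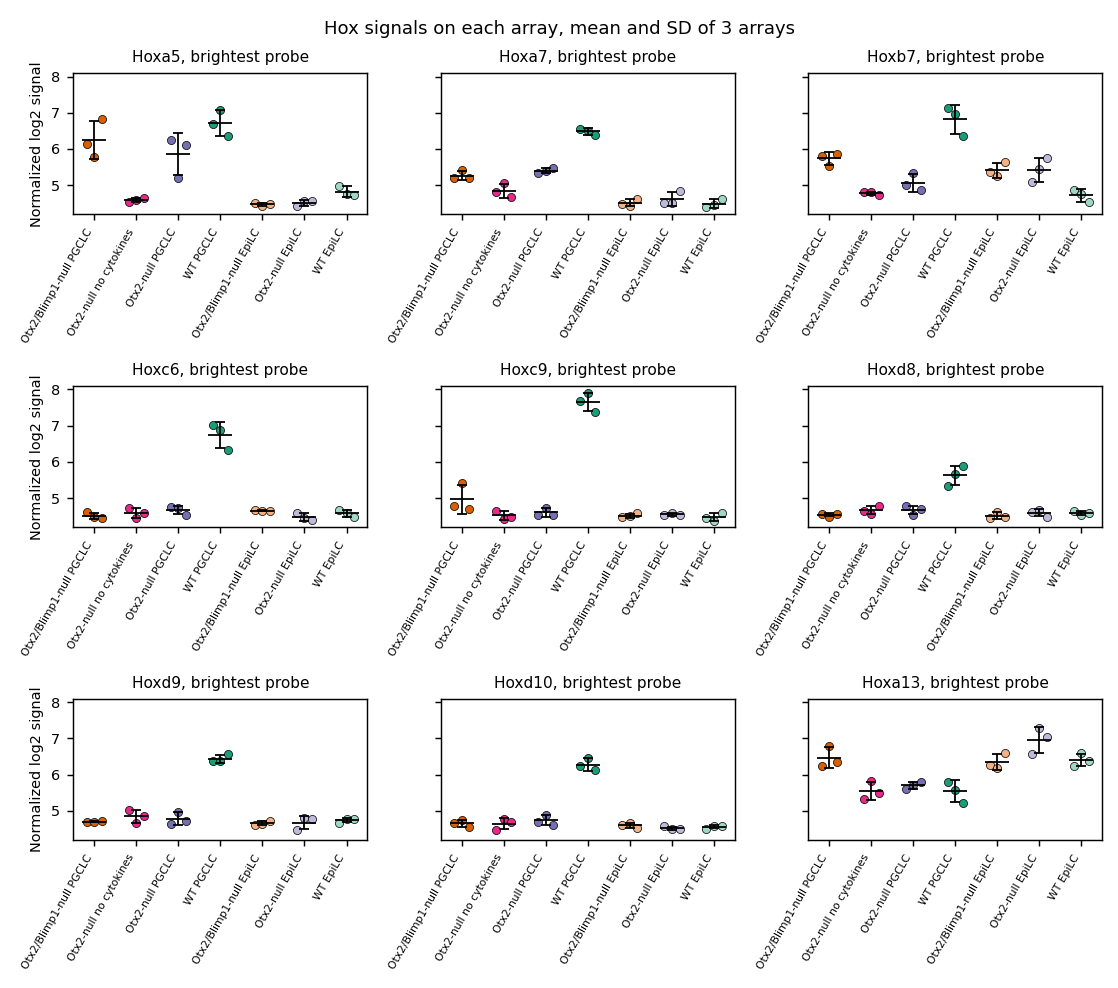
Normalized log2 signal of the brightest probe of 9 Hox genes on each array (points), with the mean and SD of 3 arrays, by group. Hoxc6, Hoxc9, Hoxd8, Hoxd9 and Hoxd10 are high in WT PGCLC and at most 5.42 on all other arrays, Hoxa5 and Hoxa7 are higher in all 3 PGCLC groups than in EpiLC, and Hoxa13 is highest in Otx2-null EpiLC.

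Whether the change on induction itself differed between the lines was tested as an interaction, the PGCLC to EpiLC difference in Otx2-null cells minus that in WT cells. It was below 0 for 10 Hox probes and above 0 for 0, beside 2.88% and 2.8% of all probes. The probes were those of Hoxc9 (-3.13 ± 0.21), Hoxb7 (-2.46 and -1.61), Hoxd9 (-2.0 and -1.59), Hoxc6 (-1.98), Hoxd10 (-1.51), Hoxc10 (-1.37), Hoxa7 (-1.21) and Hoxd8 (-0.97), with adjusted p between 1.18e-07 and 0.000753. These are fitted values, in which groups at background enter with the level read there. With the authors' normalized table the Hoxb7 (-0.49, adjusted p = 0.184) and Hoxc6 (-0.36, adjusted p = 0.179) probes did not pass. For Hoxa5 the interaction did not pass the test (-0.55 ± 0.36, adjusted p = 0.523).

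Within the Otx2-null line, Hox genes changed little from EpiLC to PGCLC. By limma 2 Hox probes were higher and 2 lower, where 15.3% of all probes were higher and 14.3% lower. The 2 higher were Hoxa5 and Hoxa7. Hoxa5 read 6.26, 5.19 and 6.11 in Otx2-null PGCLC, against 4.42, 4.57 and 4.56 in Otx2-null EpiLC, at least 1.48-fold higher (adjusted p = 0.000342). Hoxa7 read 5.32, 5.40 and 5.48 in Otx2-null PGCLC, against 4.51, 4.51 and 4.84 in Otx2-null EpiLC, at least 1.08-fold higher (adjusted p = 1.42e-05). Neither overlapped, and without PGCLC replicate 2 both calls held, at differences of 1.67 and 0.78. The detected Hoxa13 probe fell by 1.26 ± 0.20 (adjusted p = 4.82e-05), and a Hoxa10 probe with no detected value fell by 0.36 (adjusted p = 0.0496). In the authors' normalized table, where dim signals lie near a floor, the Hoxa5 and Hoxa7 differences were 0.05 (adjusted p = 0.819) and 0.02 (adjusted p = 0.0535).

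Without cytokines this rise was not seen. In sorted Otx2-null cells without cytokines, 0 Hox probes were higher than in Otx2-null EpiLC and 2 were lower, beside 15.5% and 14.2% of all probes, and 6 passed an unadjusted p under 0.05 in either direction. The 2 were the detected Hoxa13 probe, which fell by 1.42 ± 0.20 (adjusted p = 1.14e-05), and the brighter Hoxb7 probe, which was at least 1.43-fold lower (adjusted p = 0.0144). The Hoxb7 call was lost without Otx2-null EpiLC replicate 3 (-0.48, adjusted p = 0.0885), with the authors' normalized table (-0.02, adjusted p = 0.961) and with an offset of 50 (-0.33, adjusted p = 0.0541). Set against Otx2-null PGCLC, 2 Hox probes were lower without cytokines and 0 higher, beside 2.91% and 2.46% of all probes. They were again those of Hoxa5 and Hoxa7. Hoxa5 read 4.54, 4.59 and 4.66 without cytokines, against 6.26, 5.19 and 6.11 in Otx2-null PGCLC, at least 1.92-fold lower (adjusted p = 0.00459). Hoxa7 read 4.80, 5.05 and 4.68 without cytokines, against 5.32, 5.40 and 5.48 in Otx2-null PGCLC, lower by a log2 difference of -0.56 ± 0.11 (adjusted p = 0.00376). The values did not overlap. Neither passed in the authors' normalized table, with differences of -0.05 and -0.01.

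Against WT PGCLC, the cells without cytokines had 16 Hox probes lower, for 13 genes, and 0 higher, beside 4.93% and 4.25% of all probes, and 18 passed an unadjusted p under 0.05. Hoxa5 was at least 3.48-fold lower than in WT PGCLC (adjusted p = 2.18e-05), and Hoxc9, at 4.65, 4.43 and 4.48 without cytokines, at least 6.71-fold lower (adjusted p = 5.62e-10). In the authors' normalized table the Hoxa5 difference was -0.32 (adjusted p = 0.0855). The Hoxd4 difference (-0.61 ± 0.15) did not pass without WT PGCLC replicate 1 (-0.40) or without replicate 2 or 3 of the cells without cytokines (-0.54 and -0.49). One Hoxa2 probe (-0.55 ± 0.16) lost its call without WT PGCLC replicate 2 or any 1 replicate without cytokines, at -0.60 to -0.36, and with the replicate number as a block (-0.55).

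In the line without Otx2 and Blimp1, PGCLC had 5 Hox probes higher and 0 lower than their EpiLC, beside 8.59% and 9.54% of all probes. Hoxa5 read 6.14, 5.78 and 6.83 in Otx2/Blimp1-null PGCLC, against 4.51, 4.42 and 4.49 in Otx2/Blimp1-null EpiLC, at least 2.08-fold higher (adjusted p = 4.06e-05). Hoxa7 read 5.19, 5.41 and 5.19 in Otx2/Blimp1-null PGCLC, against 4.48, 4.43 and 4.62 in Otx2/Blimp1-null EpiLC, at least 1.05-fold higher (adjusted p = 5.32e-05). Both were higher on all 3 arrays than on any EpiLC array. In the authors' normalized table neither passed (0.12, adjusted p = 0.604, and 0.02, adjusted p = 0.107). The second Hoxb7 probe (0.43 ± 0.10, adjusted p = 0.00317), Hoxc9 (0.45 ± 0.15, adjusted p = 0.0472) and 1 Hoxc10 probe (at least 1.31-fold, adjusted p = 0.0236) were the other calls. None of these 3 probes was detected in Otx2/Blimp1-null EpiLC, so the differences of the first 2 are between a dim signal and background. The brighter Hoxb7 probe was detected on all 3 Otx2/Blimp1-null EpiLC arrays, at 5.35, 5.25 and 5.64. It differed by 0.32 and was not called. The Hoxc10 probe called here is the one that did not pass the test in WT. The Hoxc10 probe that rose in WT differed by 0.13 here and was not called. The Hoxb7 call was lost with the authors' normalized table (0.01, adjusted p = 0.169) and with an intensity trend (adjusted p = 0.0511). The Hoxc9 call was lost with both (adjusted p = 0.99 and 0.0895), with an offset of 50 (0.21, adjusted p = 0.156) and with no quantile step (0.44, adjusted p = 0.0547). Hoxc9 was detected on 1 of the 3 arrays, at 4.77, 5.42 and 4.71, and without that array, replicate 2, its difference was 0.22 (adjusted p = 0.283). Its call was also lost without any 1 of the Otx2/Blimp1-null EpiLC replicates (0.43 to 0.48), and that of Hoxc10 without EpiLC replicate 1 (0.78) or PGCLC replicate 2 (0.75) or 3 (0.70).

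Otx2/Blimp1-null PGCLC differed from Otx2-null PGCLC in few Hox genes, with 3 probes higher and 0 lower, beside 9.1% and 10.6% of all probes. The Hoxa13 probe read 6.24, 6.80 and 6.35 in Otx2/Blimp1-null PGCLC, against 5.61, 5.72 and 5.79 in Otx2-null PGCLC (0.76 ± 0.20, adjusted p = 0.00846). The brighter Hoxb7 probe read 5.82, 5.54 and 5.86 in Otx2/Blimp1-null PGCLC, against 4.99, 5.35 and 4.85 in Otx2-null PGCLC (0.67 ± 0.19, adjusted p = 0.0166), and the second Hoxb7 probe differed by 0.33 ± 0.10 (adjusted p = 0.0189). The values did not overlap in these 3 probes. None of them passed in the authors' normalized table (0.10, 0.02 and 0.01). The Hoxa13 call was lost without Otx2/Blimp1-null PGCLC replicate 2 (0.59, adjusted p = 0.0601), and the Hoxb7 calls without 4 of the arrays each, at 0.57 to 0.64 and 0.29 to 0.32. As an interaction, the change of the Hoxa13 probe from EpiLC to PGCLC was larger by 1.37 ± 0.28 (adjusted p = 0.00132) in the double-null than in the Otx2-null line. It was the 1 Hox probe above 0 in that contrast, with 0 below, beside 9.2% and 10.4% of all probes. In the authors' normalized table this value was 0.75 (adjusted p = 0.0999).

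Against WT PGCLC, the double-null PGCLC had 17 Hox probes lower and 1 higher, beside 13.1% and 10.8% of all probes. Hoxc9 was lower by a log2 difference of -2.69 ± 0.15 (adjusted p = 1.04e-09), Hoxc6 at least 3.26-fold lower (adjusted p = 1.62e-09) and Hoxd10 at least 2.36-fold lower (adjusted p = 1.62e-09). Hoxa7 was lower by a log2 difference of -1.22 ± 0.11 (adjusted p = 1.44e-07). Hoxa5 overlapped, at 6.14, 5.78 and 6.83 in Otx2/Blimp1-null PGCLC, against 6.70, 7.07 and 6.36 in WT PGCLC, and did not pass the test (-0.46 ± 0.25, adjusted p = 0.252). The 1 higher was the Hoxa13 probe (0.93 ± 0.20, adjusted p = 0.00131), which missed the threshold with the authors' table (0.11, adjusted p = 0.863). Hoxb2 (at least 1.45-fold lower, adjusted p = 0.0131) lost its call without Otx2/Blimp1-null PGCLC replicate 3 (-0.67) or WT PGCLC replicate 1 (-0.64). Hoxb5 (at least 1.3-fold), Hoxb4 (-0.36) and Hoxd12 (-0.18) were also lower, the last 2 on probes near background. All comparisons against WT PGCLC share those 3 arrays, and those with Otx2-null PGCLC share theirs.

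Before induction few Hox probes differed between the lines. In Otx2-null EpiLC 1 Hox probe was higher than in WT EpiLC and 0 lower, beside 3.13% and 3.4% of all probes. It was the brighter Hoxb7 probe, at 5.07, 5.45 and 5.74 in Otx2-null EpiLC, against 4.87, 4.74 and 4.53 in WT EpiLC, at least 1.21-fold higher (adjusted p = 0.0335, and 0.0498 with the replicate number as a block). The call was lost without Otx2-null EpiLC replicate 2 (0.69) or 3 (0.55) or WT EpiLC replicate 2 (0.72) or 3 (0.61), in the authors' normalized table (0.02) and with an offset of 50 (0.35, adjusted p = 0.11). Between Otx2/Blimp1-null and Otx2-null EpiLC 0 Hox probes were called by limma, where 2.95% of all probes were higher and 2.3% lower, and 4 Hox probes passed an unadjusted p under 0.05.

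The genes around the Hox system were read from lists, with the brightest probe of each gene. Over all 19057 genes read in this way, 21.1% were higher and 16.4% lower in WT PGCLC than in WT EpiLC, and 4.55% were higher and 6.67% lower in Otx2-null than in WT PGCLC. Of the genes detected on at least 3 arrays, 35.4% and 27.4% were called in the first comparison and 8.94% and 12.4% in the second. Of 20 measured upstream and posterior genes, 15 of them detected on all 3 arrays of either group, 10 were higher and 3 lower in WT PGCLC than in WT EpiLC. The median of the list was 0.41 and that of all probes -0.02. Cdx2, a caudal factor that starts posterior Hox genes in the mouse embryo, read 7.98 ± 0.25 in WT PGCLC, against 4.58 ± 0.02 in WT EpiLC (SD, n = 3 each), at least 7.13-fold higher (adjusted p = 1.19e-12). It was not detected in any of the other groups and was at least 8.32-fold lower in Otx2-null than in WT PGCLC (adjusted p = 2.61e-11). Cdx1 rose by 1.98 ± 0.19 in WT (adjusted p = 1.49e-07), Wnt5a, a ligand of the elongating body axis, by at least 3.12-fold (adjusted p = 7.29e-12), and Sp5, a Wnt target, by at least 2.03-fold (adjusted p = 4.21e-08). Fgf8, Lin28a and Lin28b went against the list, with Fgf8 at least 1.79-fold lower (adjusted p = 0.00127), Lin28a at -0.93 ± 0.21 and Lin28b at -0.86 ± 0.24. In Otx2-null against WT PGCLC 6 members were lower and 1 higher. Cdx1 was at -1.75 ± 0.19 (adjusted p = 9.54e-06), Wnt5a at least 3.65-fold lower (adjusted p = 1.89e-10) and Sp5 at least 2.37-fold lower (adjusted p = 1.6e-06), while Wnt3a was higher by 0.49 ± 0.10 (adjusted p = 0.00443). Of these 20 genes, 8 were lower without cytokines and 10 in double-null PGCLC, each against WT PGCLC, beside 7.78% and 19.9% of all genes lower and 5.12% and 13.2% higher.

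The TALE homeodomain class includes proteins, such as Pbx and Meis, that bind DNA together with Hox proteins. Of 10 measured genes of this class, 5 were higher and 0 lower in WT PGCLC than in WT EpiLC, with a list median of 0.55, and 7 of the 10 were detected on all 3 arrays of either group. Meis2 was at least 24.5-fold higher (adjusted p = 4.8e-12), Meis1 at least 7.3-fold higher (adjusted p = 7.33e-11) and Pbx2 0.91 ± 0.16 higher (adjusted p = 0.000211). In Otx2-null PGCLC 5 were higher and 1 lower than in their EpiLC, beside 21.2% and 18% of all genes, among them Meis2 by 4.69 ± 0.18 (adjusted p = 5.01e-12). Against WT PGCLC, Meis1 (-1.23 ± 0.17, adjusted p = 0.000116) and Tgif2 (-0.93 ± 0.23, adjusted p = 0.0161) were lower in Otx2-null PGCLC, and the other 8 did not pass the test.

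Of 17 measured genes of the retinoic acid pathway, 4 were higher and 2 lower in WT PGCLC than in WT EpiLC, with a list median of 0.03, shares close to those of all genes read in this way. Rarb, a receptor and a target of the pathway, was at least 1.25-fold higher (adjusted p = 2.38e-05), and Stra8, a target in germ cells, at least 2.42-fold higher (adjusted p = 3.49e-05). The binding protein Crabp2 fell by 0.87 ± 0.20 (adjusted p = 0.00233). In Otx2-null against WT PGCLC, Rarb was at least 1.45-fold lower (adjusted p = 0.000371), and Crabp2 was lower by a log2 difference of -1.99 ± 0.20 (adjusted p = 4.59e-06). Stra8 was also lower, and Crabp1 was higher by 0.74 ± 0.18 (adjusted p = 0.0129). Of 28 Polycomb and Trithorax genes, which set the chromatin of the clusters, 17 were higher and 3 lower in WT PGCLC than in WT EpiLC. The list median was 0.88, and 26 of the 28 were detected on all 3 arrays of either group. Of all genes detected on at least 3 arrays, 35.4% were higher and 27.4% lower. Suz12, a core Polycomb protein, rose by 2.32 ± 0.12 (adjusted p = 1.13e-10), and Eed, its partner, fell by 0.65 ± 0.17 (adjusted p = 0.00789). Between Otx2-null and WT PGCLC 1 of the 28 was higher (Phc1, 0.68 ± 0.18, adjusted p = 0.0256) and 0 lower. In Otx2/Blimp1-null against Otx2-null PGCLC 13 were lower and 0 higher, beside 15.8% and 11.6% of all genes. Of the genes detected on at least 3 arrays, 48.3% were called in that comparison, both directions together. Of 23 other homeobox genes of the same class, 5 were higher and 0 lower in WT PGCLC than in WT EpiLC, and 15 were not detected on any WT PGCLC array. Msx1, a BMP target, read 2.14 ± 0.23 above WT EpiLC (adjusted p = 5.6e-07) and was at least 4.44-fold lower in Otx2-null than in WT PGCLC (adjusted p = 1.98e-06). Evx1, which neighbours the Hoxa cluster, was at least 1.42-fold higher in WT PGCLC (adjusted p = 8.22e-05) and lower in Otx2-null than in WT PGCLC (-0.73 ± 0.15, log2, SE; adjusted p = 0.00416).

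Markers of other cell types were read from further lists. In WT PGCLC against WT EpiLC 4 of 15 mesoderm markers were higher and 0 lower, 2 of 8 neural markers were higher and 0 lower, 1 of 7 endoderm markers was higher and 2 lower, 3 of 8 blood and endothelial markers were higher and 3 lower, and 5 of 6 trophoblast and amnion markers were higher and 0 lower. Beside these, 21.1% of all genes read in this way were higher and 16.4% lower. The mesoderm and neural counts of higher markers lay near that share. Of the mesoderm markers, 2 were detected on all 3 arrays in Otx2/Blimp1-null PGCLC, 3 in Otx2-null cells without cytokines, 3 in Otx2-null PGCLC and 6 in WT PGCLC. Their summed linear signal was 1326 to 1496 in Otx2/Blimp1-null PGCLC, 733 to 801 without cytokines, 919 to 1145 in Otx2-null PGCLC and 1036 to 1387 in WT PGCLC. Mesp1, Mesp2, Mixl1, Hand1, Hand2 and Foxf1 were detected in none of these 4 groups. Gata6 (at least 4.1-fold, adjusted p = 2.49e-08) and Snai1 (1.53 ± 0.22, adjusted p = 2e-05) were higher in WT PGCLC than in WT EpiLC, and both were lower in Otx2-null than in WT PGCLC (-2.22 ± 0.21 and -1.81 ± 0.22). Of 8 blood and endothelial markers 4 were detected in WT PGCLC and 1 in each of the other day-6 groups. Their sum was 298 to 335 in Otx2/Blimp1-null PGCLC, 401 to 508 without cytokines, 400 to 480 in Otx2-null PGCLC and 913 to 1065 in WT PGCLC. The embryonic globin genes Hbb-y and Hba-x were detected in WT PGCLC, at least 7-fold (adjusted p = 5.2e-14) and at least 3.31-fold (adjusted p = 2.52e-10) above WT EpiLC, and in no other day-6 group. Pecam1, an endothelial and germ cell surface protein, was also higher in WT PGCLC (3.44 ± 0.22, adjusted p = 1.24e-09). Lmo2, a blood cofactor, was lower (-1.88 ± 0.19, adjusted p = 2.6e-07), as were Tal1 (-0.24) and Runx1 (-0.19) at background. The blood factors Tal1, Gata1 and Runx1 were not detected in any day-6 group.

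Of 6 trophoblast and amnion markers, which share Cdx2 with the upstream list, 5 were detected in WT PGCLC, against 2 in Otx2/Blimp1-null PGCLC, 3 without cytokines and 3 in Otx2-null PGCLC. Their summed signal was 262 to 288 in Otx2/Blimp1-null PGCLC, 373 to 463 without cytokines, 368 to 411 in Otx2-null PGCLC and 725 to 738 in WT PGCLC. Gata3 was at least 2.17-fold higher in WT PGCLC than in WT EpiLC (adjusted p = 6.98e-10), and Elf5 was not detected. Of 8 neural markers 0 were detected in Otx2/Blimp1-null PGCLC and 1 (Nes) in each of the other day-6 groups, with sums of 205 to 221 in Otx2/Blimp1-null PGCLC, 212 to 216 without cytokines, 204 to 225 in Otx2-null PGCLC and 279 to 304 in WT PGCLC. Of 7 endoderm markers 1 (Cxcr4) was detected in each day-6 group, with sums of 187 to 210 in Otx2/Blimp1-null PGCLC, 204 to 214 without cytokines, 182 to 185 in Otx2-null PGCLC and 221 to 239 in WT PGCLC. The sums of all marker lists include undetected probes, which enter at their background level. At most 1 neural or endoderm marker was detected on all 3 arrays of a day-6 group, so those sums are largely background. The part of cells of these other types in the Hox values was not tested.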

How the data were processed

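RNA of 21 samples was hybridised to single-colour Illumina bead arrays, from 100 ng of total RNA primed with oligo-dT, per the labels' protocols. The deposited intensities are called non-normalized, but the values are background-subtracted and equalized between arrays (lowest -19.6 or -18.7, highest 30894.6 on every array). Each intensity comes with a detection p-value, per the file headers. The authors' normalized table and the series matrix hold the same deposited log2 values, and per the submitters' processing notes limma was used. For 1 array, Otx2-null PGCLC replicate 2, the probe order of the intensities differed from that of its normalized values (rank correlation 0.00547). The intensities were reordered by the ranks of the normalized values, which makes this correlation 1 by construction. After the same reordering, 76 detection p-values differed from those deposited with the normalized values. That the normalized order is the right one was taken as given. The detection p-values used are those deposited with the normalized values.

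The intensities were treated with neqc (background correction from detection p-values, offset 16, quantile normalization, log2) in limma 3.58.1 under R 4.3.3, tables being read with the data.table package (version 1.17.8). All 45281 probes, with no filter, were fitted with lmFit and eBayes on group alone. From 1 fit of 21 arrays came 11 comparisons and 2 contrasts of changes, two-sided, adjusted by Benjamini-Hochberg over all probes with a threshold of 0.05. Each probe is reported by itself, and 13 Hox genes have more than 1. In the platform annotation 34885 probes name 1 gene, 18 several and 10378 none. The Hox probes, the gene lists and the marker lists were chosen with earlier results of these data known. Probes detected on all 3 arrays of a group are named with their values, other called probes briefly, and up to 4 called members of each other list, plus members against its median. The number of arrays limits the precision, with a median SE of 0.17 for a log2 difference over the 21647 probes detected on at least 3 arrays.

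On simulated data of 45281 probes for WT PGCLC against WT EpiLC, 50 probes were changed at each size. The fit recovered 54% of changes of 0.5, 96% of 1 and 100% of 2 or 3 (log2). It made 18 false calls, 9.33% of all calls, above the nominal share set by the threshold. Far fewer probes were changed there than were called in the real comparison, so these rates may not hold for it. Deviations of same-numbered replicates correlated above 0.1 in every pair for Otx2-null against WT EpiLC alone (0.13, 0.28 and 0.18). The main fit stayed on group alone for this comparison too. Its value from a fit with the replicate number as a block over all arrays is given beside the call, which it did not change. Alternatives were the authors' normalized table, a detection filter, an intensity trend, an offset of 50, no quantile step, a replicate block, a single probe per gene and leaving out each array. Pandas 2.3.3, numpy 2.4.6 and matplotlib 3.10.9 under Python 3.11.15 were used. No batch could be examined, since the labels name no slide.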

Additional observations from a re-analysis of the deposited data

Results flagged for a closer look

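The change from EpiLC to PGCLC differed between the Otx2-null and the WT line, by the interaction in limma, for 10 Hox probes. The log2 values, Otx2-null minus WT, were -1.21 for Hoxa7, -2.46 and -1.61 for the 2 Hoxb7 probes, -1.98 for Hoxc6, -3.13 for Hoxc9, -1.37 for 1 Hoxc10 probe, -0.97 for Hoxd8, -1.59 and -2.0 for the 2 Hoxd9 probes, and -1.51 for Hoxd10. Each of these probes was called higher in WT PGCLC than in WT EpiLC. In the Otx2-null line only Hoxa7 among them was called higher. The brighter Hoxb7 probe fell there by 0.36, which was not called, from a higher level in Otx2-null than in WT EpiLC (means 5.42 and 4.72). The corresponding contrast of the Otx2/Blimp1-null with the Otx2-null line differed for 1 Hoxa13 probe, by 1.37. No explanation was tested for these differences.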

How the results depend on the processing

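Direction was followed for the Hox probes detected on all 3 arrays of a group. Their calls against WT PGCLC, and their called rises in WT PGCLC, kept it in every setting run. Leaving out single arrays gave 16 to 19 calls for WT PGCLC against WT EpiLC (20 with all arrays), 3 to 7 for Otx2-null PGCLC against EpiLC (4), 2 to 6 without cytokines against EpiLC (2) and 3 to 6 for the double-null induction (5). Against WT PGCLC it gave 13 to 15 for Otx2-null PGCLC (15), 13 to 15 without cytokines (16) and 16 to 18 for double-null PGCLC (18). It gave 2 for cells without cytokines against Otx2-null PGCLC (2), 1 to 3 for double-null against Otx2-null PGCLC (3), 0 to 2 for either EpiLC comparison, and 10 to 12 and 1 to 3 for the 2 interactions (10 and 1).

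With no quantile step the median of all probes itself moved, by -0.22 in WT PGCLC, -0.41 in Otx2-null PGCLC and -0.41 without cytokines, each against EpiLC, where 45.1%, 67.6% and 67.3% of all probes were then called lower and 14.7%, 14.5% and 14.7% higher. The Hox counts were then 32 (14 higher, 18 lower), 44 (2 higher, 42 lower) and 45 (all lower). They were 15 in double-null against Otx2-null PGCLC (all higher; shift of all probes 0.18), 14 in Otx2-null against WT EpiLC (shift 0.18), 32 in double-null against Otx2-null EpiLC (shift -0.24), and 18 and 38 in the interactions (shifts -0.17 and 0.43). Against WT PGCLC the double-null split was 10 higher and 15 lower (shift 0.19). Values near 0 that had not passed turned sign with that shift: in Otx2-null PGCLC against EpiLC Hoxa2 (-0.33), Hoxb7 (-0.24), Hoxc9 (-0.37) and Hoxd8 (-0.32), without cytokines Hoxa2 (-0.32), Hoxc6 (-0.33), Hoxd8 (-0.33) and Hoxd10 (-0.29), and in the double-null interaction Hoxa2 (0.39) and Hoxd8 (0.39).

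With the authors' own normalization, 1 Hox probe was called in each of Otx2-null PGCLC, cells without cytokines and double-null PGCLC against EpiLC. It called 0 for cells without cytokines against Otx2-null PGCLC, double-null against Otx2-null PGCLC, Otx2-null against WT EpiLC and the double-null interaction. Requiring detection on at least 3 arrays gave 4 calls without cytokines against EpiLC and 1 in double-null against Otx2-null EpiLC. The intensity trend gave 3 for the double-null induction, and the offset of 50 gave 1 without cytokines and 0 in Otx2-null against WT EpiLC. The causes were not tested. At a detection p under 0.01 the median count of Hox probes detected per array was 17 in WT PGCLC, 3 in double-null PGCLC, 2 without cytokines, 3 in Otx2-null PGCLC, and 1, 1 and 2 in double-null, Otx2-null and WT EpiLC. With the replicate number as a block, Hox calls were 19 in WT PGCLC against WT EpiLC, 3 in Otx2-null PGCLC against EpiLC, 15 in each Otx2-null day-6 group against WT PGCLC, and 1 in Otx2-null against WT EpiLC. Of the named called values the block ended 2, the Hoxa5 difference between Otx2-null and WT PGCLC (-0.85) and that of 1 Hoxa2 probe between cells without cytokines and WT PGCLC (-0.55), in comparisons where the samples share only a number. Dim signals near background limit what could be seen for the 26 probes detected nowhere.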
